A study of Mus musculus with 10 samples.

Results

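The CLK and SRPK genes encode the kinases that phosphorylate SR proteins, the serine and arginine rich splicing factors. The members were the 6 rows of the deposited table whose symbols are Clk1, Clk2, Clk3, Clk4, Srpk1 and Srpk2, out of 52097 genes. The RNA was that of blood stem cells sorted from mouse bone marrow, sequenced in bulk. The comparison is between 5 CKO libraries, with the genotype label KO for Dhx16, and 5 WT libraries, with the genotype label WT. Dhx16 is a DEAH-box RNA helicase that acts in the activated spliceosome. The sample titles name the groups Dhx16_CKO and Dhx16_fl, names that point to a conditional knockout of a floxed gene, while the Cre driver, strain, age and any inducing agent are not given in the sources used here. About 5000 cells per sample had been sorted as Lin-Sca-1+c-Kit+CD48-CD150+, and Smart-Seq V4 libraries, which copy polyadenylated RNA, were made from them. The values are taken as FPKM, fragments corrected for transcript length and for library size, so that levels of different genes can be compared per length. Whether each sample came from its own animal is not stated, so p-values measure only the spread between these samples.

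SR proteins carry a domain of repeated arginine and serine residues, and the state of phosphorylation of that domain sets where they go and whether they can join a spliceosome. SRPK proteins phosphorylate it mostly in the cytoplasm, which lets SR proteins enter the nucleus and gather in nuclear speckles. CLK proteins, named for a CDC2-like kinase fold, are dual-specificity kinases of the nucleus that add further phosphates and release SR proteins from speckles to the sites of transcription. The Clk1 transcript is itself alternatively spliced, and part of it stays in the nucleus with introns still in place until it is needed. All values here are per gene, so neither the splicing of these transcripts nor kinase activity was measured.

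The sequence around the start sites is shown because most of the kinase genes were called in the same direction and Clk2 was not called. RefSeq windows of 250 bases before and 50 bases after a start site (GRCm38.p6) were at hand for 5 members in 7 windows, with none for Clk1. The 4 windows printed are those of Clk4, Clk3 and Srpk2, whose libraries did not overlap between groups, and of Clk2, which was not called. For Srpk2, which has 3 start sites in the table, the most GC-rich window is shown. They are written 5′ to 3′ on the strand of the gene, and capitals mark matches on either strand to any of 5 motifs. These are the cAMP response element TGACGTCA, the GC box GGGCGG, the ETS core CCGGAA, the E-box CACGTG and the CCAAT box CCAAT, and none of the marked matches overlaps another.
Clk4: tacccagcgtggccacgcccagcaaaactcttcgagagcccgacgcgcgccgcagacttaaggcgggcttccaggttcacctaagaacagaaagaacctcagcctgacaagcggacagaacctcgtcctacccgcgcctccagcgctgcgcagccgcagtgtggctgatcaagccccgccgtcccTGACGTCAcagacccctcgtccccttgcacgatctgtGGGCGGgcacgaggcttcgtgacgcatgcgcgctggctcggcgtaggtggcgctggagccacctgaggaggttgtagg
Clk3: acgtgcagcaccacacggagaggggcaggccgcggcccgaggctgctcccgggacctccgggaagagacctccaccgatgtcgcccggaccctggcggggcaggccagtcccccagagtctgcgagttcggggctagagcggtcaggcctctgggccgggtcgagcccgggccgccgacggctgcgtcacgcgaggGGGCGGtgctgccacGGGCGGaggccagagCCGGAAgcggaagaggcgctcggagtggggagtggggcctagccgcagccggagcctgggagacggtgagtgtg
Srpk2: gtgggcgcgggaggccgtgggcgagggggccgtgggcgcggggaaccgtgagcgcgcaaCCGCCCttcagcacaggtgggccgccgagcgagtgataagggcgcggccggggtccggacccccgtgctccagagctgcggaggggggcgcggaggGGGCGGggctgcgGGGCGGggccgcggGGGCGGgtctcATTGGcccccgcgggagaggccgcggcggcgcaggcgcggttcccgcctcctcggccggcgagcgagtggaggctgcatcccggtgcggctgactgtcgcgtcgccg
Clk2: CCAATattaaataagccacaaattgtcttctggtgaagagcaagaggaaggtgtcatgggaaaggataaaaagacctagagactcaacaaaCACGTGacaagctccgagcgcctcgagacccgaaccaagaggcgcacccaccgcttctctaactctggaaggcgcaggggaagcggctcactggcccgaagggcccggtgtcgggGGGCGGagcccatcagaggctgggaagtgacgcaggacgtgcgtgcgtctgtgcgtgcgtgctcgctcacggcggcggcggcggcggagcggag
The Clk4 window (chr11:51262864-51263163, plus strand) held a cAMP response element whose first base lay at -65 from the start site and a GC box at -28. The other 6 windows of the members held no TGACGTCA, which was present in 1.79% of all 32851 windows in the table. The Clk3 window (chr9:57765065-57765364, minus strand) held 2 GC boxes and an ETS core, a word present in 14.9% of all windows. The Srpk2 window (chr5:23675918-23676217, minus strand) held 4 GC boxes and a CCAAT box at -57. The other Srpk2 windows, with 38.3% and 44.3% GC, held no match to any of the 5 motifs. The Clk2 window (chr3:89164545-89164844, plus strand) held a GC box at -44 and an E-box at -159, a word found in 7.15% of all windows, beside a CCAAT box. GC boxes were in 35.7% and CCAAT boxes in 37.4% of all windows, so these are common words. None of the 5 motifs was present in the printed windows of Clk4, Clk3 and Srpk2 and absent from that of Clk2. All of this describes letters and not bound factors.

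Dhx16 itself was measured first as a check of the labels. It averaged 9.49 ± 1.56 FPKM in CKO libraries and 17.5 ± 3.81 FPKM in WT libraries (SD, n = 5 each), a log2 change of -0.81 (SE 0.16, limma adjusted p = 0.000638). Its libraries did not overlap, as for 22.1% of all genes tested with CKO lower. Some CKO libraries were under 10 FPKM, so Dhx16 passed the filter of 10 FPKM in 5 libraries only through its WT libraries. With a filter of 1 FPKM, which all its libraries passed, the limma adjusted p was 0.00127. The values per gene do not say whether the deleted part is covered. FPKM values summed to 877099 to 966648 in CKO and 770789 to 957520 in WT libraries.

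Of the 6 kinase genes, 5 had at least 10 FPKM in every library and 5 of these 5 were called lower in CKO libraries, while 0 were higher. Among all 6913 genes tested, 31.6% were called lower and 21.1% higher by the same rule, a limma test with a Benjamini-Hochberg adjusted p under 0.05. The members' median log2 change was -0.68, beside -0.12 for all genes tested. The number called lower was 4 when any of 8 single libraries was left out, with Srpk1 lost, and 3 under the scaling of the libraries to the authors' fold changes. In 4 of the 5 the groups did not overlap, with every CKO library below every WT library, which was the case for 22.1% of all genes tested. Clk2 lay under the 10 FPKM filter and was fitted with a filter of 1 FPKM, where 13448 genes were tested and 36.4% were called lower and 13.4% higher. In these bulk samples, fewer cells of a type and less RNA per cell cannot be told apart.

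Clk1, a nuclear kinase of SR proteins and the most abundant of the 6, fell to 168 ± 27.7 FPKM in CKO libraries, against 304 ± 32.2 FPKM in WT libraries (SD, n = 5 each), which is 55.3% of the WT level. In the CKO libraries it was at 191 (CKO7), 170.1 (CKO8), 132 (CKO9), 198 (CKO12) and 150.4 (CKO13) FPKM, and in the WT libraries at 299 (WT2), 265 (WT3), 328 (WT4), 344 (WT5) and 285 (WT6) FPKM. The highest CKO library was thus well below the lowest WT library, and CKO9 was the lowest of all. The log2 change was -0.86 with a standard error of 0.14 and an adjusted p of 0.000124 (limma, 95% interval -1.15 to -0.57). Clk1 (ENSMUSG00000026034) lies on chr1:58410189-58424066 in mm10, minus strand. GENCODE M21 lists 13 transcripts for it, of which 1 is coding and 7 are retained-intron forms. The deposited value does not separate them.

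Clk4, the closest relative of Clk1, fell to 52.4 ± 5.04 FPKM in CKO libraries, against 84.6 ± 6.47 FPKM in WT libraries (SD, n = 5 each). It was at 53.9, 55.9, 57.8, 48.75 and 45.7 FPKM in CKO7, CKO8, CKO9, CKO12 and CKO13, and at 88.4, 75.9, 91.2, 87.8 and 79.7 FPKM in WT2 to WT6. The groups were apart by more than either group's own range, and CKO9, the lowest library for Clk1, was the highest CKO library for Clk4. The log2 change was -0.68 (SE 0.11, limma adjusted p = 0.00012). Clk4 (ENSMUSG00000020385) lies on chr11:51261730-51281766, plus strand, with 14 annotated transcripts, of which 4 are coding and 7 are retained-intron forms. Although the proteins are related, 0 words of 50 bases in the annotated transcripts of any of the 6 kinase genes were found in those of another, so exact matches of that length do not mix them.

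Clk3, a relative with the same kinase fold, fell to 42.6 ± 2.90 FPKM in CKO libraries, against 63.8 ± 10.7 FPKM in WT libraries (SD, n = 5 each). Its CKO libraries were at 41.5, 47.0, 43.5, 41.6 and 39.25 FPKM from CKO7 to CKO13, and its WT libraries at 82.0, 63.4, 57.5, 61.2 and 54.7 FPKM from WT2 to WT6. WT2 stood above the other WT libraries, and the groups did not overlap. The log2 change was -0.56 (SE 0.12, limma adjusted p = 0.00122), and -0.47 without WT2 (limma adjusted p = 0.0024). Clk3 (ENSMUSG00000032316) lies on chr9:57750624-57765860, minus strand. Its exons share 15.2% of their bases with those of Edc3, an enhancer of mRNA decapping on the opposite strand, and the strand setting is not stated, so reads there cannot be assigned. Edc3 was at 17.6 ± 1.13 FPKM in CKO and 18.3 ± 2.26 FPKM in WT libraries and was not called (log2 -0.05, limma adjusted p = 0.743).

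Clk2, another nuclear SR protein kinase, was the least abundant member, at 4.29 ± 0.24 FPKM in CKO libraries and 4.50 ± 1.28 FPKM in WT libraries (SD, n = 5 each). The CKO libraries were at 4.30, 3.94, 4.45, 4.20 and 4.57 FPKM and lay within the spread of the WT libraries, at 3.78, 3.27, 6.60, 4.60 and 4.24 FPKM. WT4 was the highest. In the fit with the 1 FPKM filter the log2 change was -0.03 (SE 0.15, limma adjusted p = 0.893), with a 95% interval of -0.36 to 0.30. That interval leaves room for a change about as large as that of Srpk1 and does not reach the values of Clk1, Clk3, Clk4 or Srpk2. Clk2 (ENSMUSG00000068917) lies on chr3:89164795-89176921, plus strand.

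**Figure D1:**
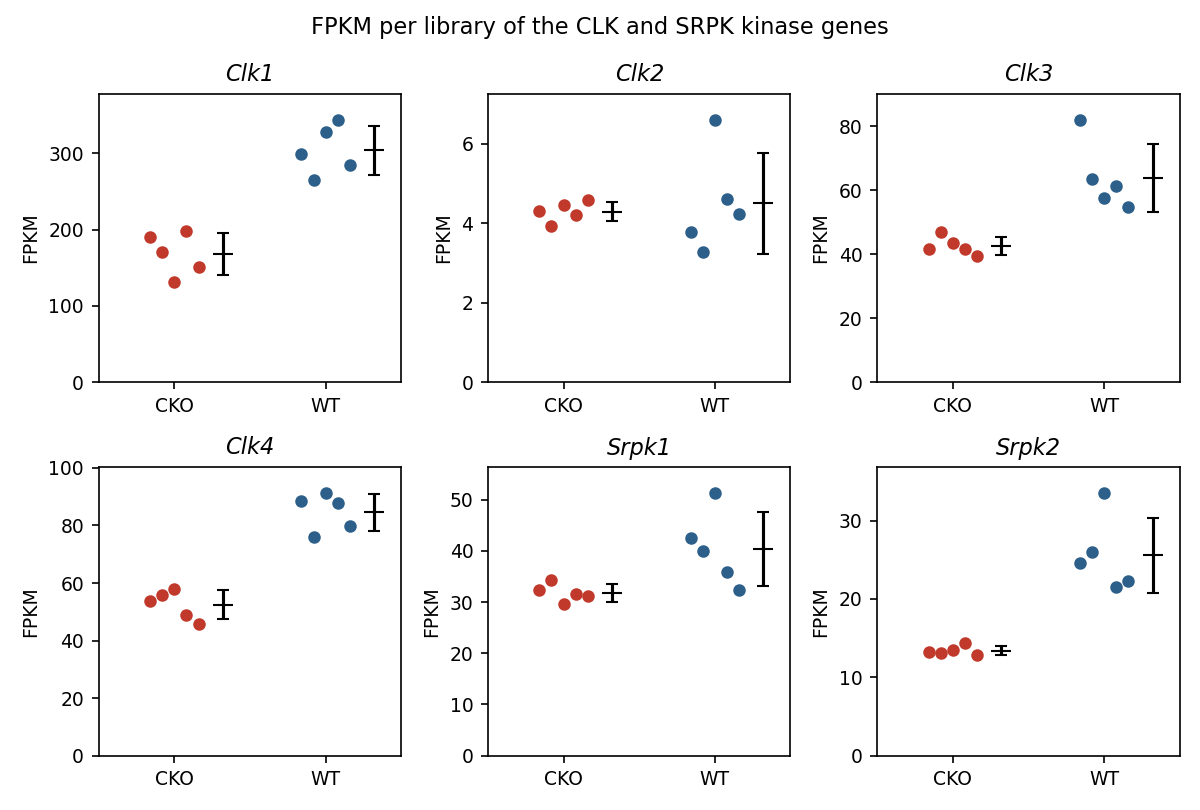
FPKM of each kinase gene in every library (points), with CKO libraries in red, WT libraries in blue and the mean ± SD of the 5 libraries of each group in black. The groups are apart for Clk1, Clk3, Clk4 and Srpk2, while they overlap for Clk2 and Srpk1. WT4 is the highest point for Clk2, Clk4, Srpk1 and Srpk2.

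Srpk2, a cytoplasmic and nuclear SR protein kinase, fell to 13.4 ± 0.587 FPKM in CKO libraries, against 25.6 ± 4.79 FPKM in WT libraries (SD, n = 5 each), or 52.4% of the WT level. The CKO libraries were at 13.2, 13.1, 13.5, 14.4 and 12.85 FPKM, close to each other, and the WT libraries at 24.6, 26.0, 33.5, 21.5 and 22.2 FPKM. WT4 was the highest, and the groups were well apart. The log2 change was -0.87 (SE 0.13, limma adjusted p = 7.61e-05), and it was -0.77 without WT4. Srpk2 (ENSMUSG00000062604) lies on chr5:23503264-23684617, minus strand. Of its exonic bases, 6.99% are shared with Kmt2e, a gene of the lysine methyltransferase family on the opposite strand, which fell as well. Kmt2e was at 54.7 ± 3.96 FPKM in CKO and 70.1 ± 4.37 FPKM in WT libraries (log2 -0.35, limma adjusted p = 0.0082), and its part in the value of Srpk2 was not tested.

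Srpk1, the best studied SR protein kinase of the cytoplasm, was at 31.9 ± 1.74 FPKM in CKO libraries and 40.4 ± 7.20 FPKM in WT libraries (SD, n = 5 each). The CKO libraries were at 32.4, 34.4, 29.7, 31.7 and 31.1 FPKM, and the WT libraries at 42.6, 40.0, 51.3, 36.0 and 32.35 FPKM. WT6 lay within the CKO range, WT4 was the highest, and the groups overlapped. The log2 change was -0.32 (SE 0.13, 95% interval -0.58 to -0.05), and the limma adjusted p of 0.0424 was the weakest of the 5 calls. The call was lost when any of 8 of the 10 libraries was left out, WT5 and WT6 being the exceptions, with adjusted p between 0.018 and 0.101 over the 10 fits. Without WT4 the change was -0.23. Srpk1 (ENSMUSG00000004865) lies on chr17:28587648-28622709, minus strand.

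The share of each gene within its family is free of the scaling of a library, since every member is divided by a sum from the same library. The sums themselves do depend on the scaling. The 4 CLK genes together were at 268 ± 27.0 FPKM in CKO and 457 ± 39.4 FPKM in WT libraries, 58.6% of the WT level, without overlap. Clk1 made up 62.6 ± 4.68% of that sum in CKO and 66.5 ± 2.39% in WT libraries. Clk4 made up 19.8 ± 2.86% in CKO and 18.5 ± 0.509% in WT libraries, and Clk3 16.0 ± 1.77% in CKO and 14.0 ± 2.35% in WT libraries. The groups overlapped in each of these 3 shares. The share of Clk2 was 1.62 ± 0.244% in CKO and 0.978 ± 0.232% in WT libraries and did not overlap, at 1.42 to 1.90% in CKO and 0.799 to 1.36% in WT libraries. Clk1 was 39.5 ± 7.71 times as abundant per length as Clk2 in CKO and 70.4 ± 12.7 times in WT libraries.

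The pair of SRPK genes together were at 45.3 ± 1.73 FPKM in CKO and 66.0 ± 11.8 FPKM in WT libraries, without overlap. Srpk1 made up 70.4 ± 1.58% of the SRPK sum in CKO libraries and 61.3 ± 1.67% in WT libraries (SD, n = 5 each). Its share was 68.7 to 72.4% over the CKO libraries and 59.3 to 63.4% over the WT libraries, so the groups were apart although the FPKM of Srpk1 overlapped. The ratio of Srpk1 to Srpk2 was 2.38 ± 0.181 in CKO and 1.59 ± 0.113 in WT libraries.

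**Figure D2:**
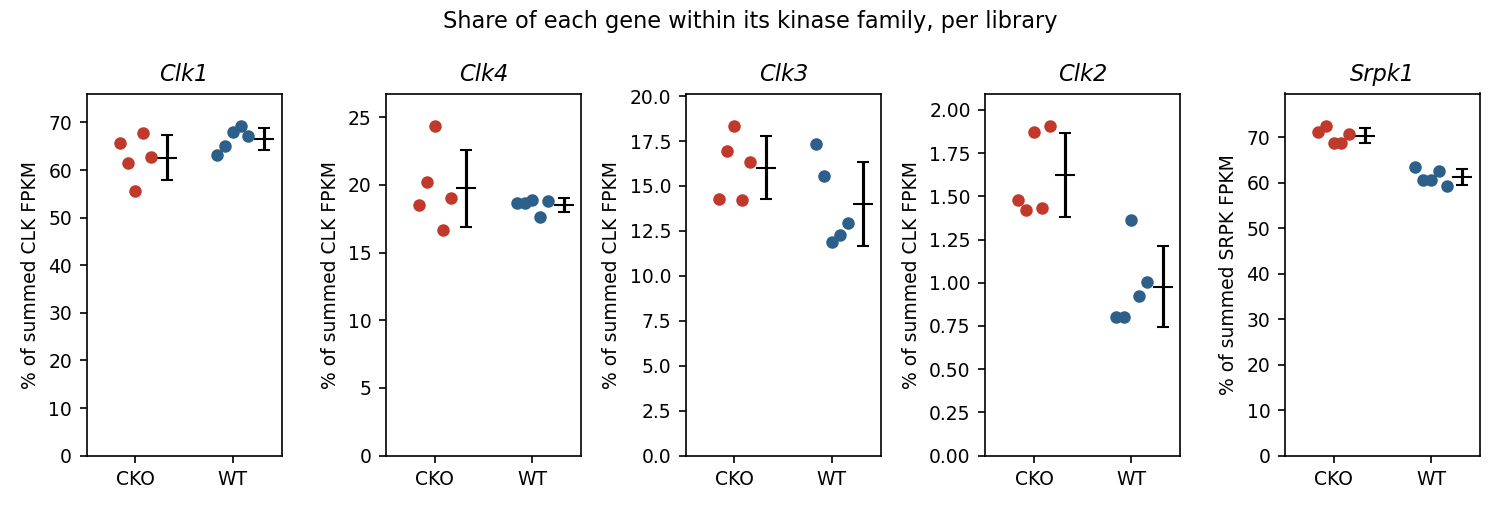
Share of Clk1, Clk4, Clk3 and Clk2 in the summed FPKM of the 4 CLK genes, and of Srpk1 in the summed FPKM of Srpk1 and Srpk2, in percent, per library (points, CKO red and WT blue) with the mean ± SD of 5 libraries in black. The groups are apart for Clk2, at 1.42 to 1.90% in CKO and 0.799 to 1.36% in WT libraries, and for Srpk1, and they overlap for Clk1, Clk4 and Clk3.

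The order of the mean FPKM levels was the same in both groups, with Clk1 highest, followed by Clk4, Clk3, Srpk1, Srpk2 and Clk2. Clk4 and Clk3 overlapped over the libraries of each group, so their order is not separated by the spread. Srpk1 and Srpk2 were apart in CKO libraries and overlapped in WT libraries. Every other pair of neighbours in the order was apart in both groups.

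The scaling of the libraries moved all changes together. The median log2 change of all genes tested was -0.12 with values as deposited, -0.25 with equal totals, -0.13 with upper-quartile factors, -0.03 with median-of-ratios factors and 0.27 when CKO libraries were scaled to the median of the authors' fold changes. The calls over all genes were 1460 higher and 2182 lower as deposited, 1056 and 2672 with equal totals, 1998 and 1968 with median-of-ratios factors and 3021 and 792 under the authors' scaling. Of all 6913 genes tested, at most 1056 can thus be higher and at most 792 lower under every scaling. The exact numbers were not counted. Clk1, Clk4 and Srpk2 were called lower under all of these scalings. Over them Clk1 ranged from -1.003 to -0.46, Clk4 from -0.82 to -0.29 and Srpk2 from -1.003 to -0.49. Clk3 kept its sign but was not called at the last of these scalings (log2 -0.16, limma adjusted p = 0.258). Srpk1 was not called with median-of-ratios factors (log2 -0.23, limma adjusted p = 0.0728), and under the authors' scaling its sign turned (log2 0.07, limma adjusted p = 0.643). Relative to the median of all genes, the values as deposited put Srpk2 at -0.75, Clk1 at -0.74, Clk4 at -0.57, Clk3 at -0.44 and Srpk1 at -0.20 on the log2 scale. The same differences under the authors' scaling were -0.76, -0.73, -0.56, -0.44 and -0.20. Clk2 was at 0.23 relative to the median of the fit with the 1 FPKM filter, which was -0.26 with values as deposited.

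The authors' deposited table, which gives their DESeq2 fold changes, called 3 of the 6 members lower, where it called 11.5% of its 23405 genes lower, and 1 higher, where it called 17.1% higher. In the authors' deposited table Clk1 changed by -0.45 on the log2 scale (SE 0.16, adjusted p = 0.0235). The authors' deposited table gave -0.31 for Clk4 (adjusted p = 0.0413) and -0.32 for Srpk2 (adjusted p = 0.0169). Clk3 at -0.12 and Clk2 at 0.29 were not called in the authors' deposited table (adjusted p = 0.494 and 0.259). Srpk1 had the opposite sign there, with a log2 fold change of 0.32 (SE 0.11) and an adjusted p of 0.0161 in the authors' deposited table, so its direction depends on which deposited values are read.

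The fold changes of the authors' deposited table exceeded the log2 ratio of mean FPKM by a median of 0.41 over 6911 genes, with 0.26 and 0.54 as the 5th and 95th percentiles. For Clk1, Clk2, Clk3 and Clk4 the gap was 0.40, 0.36, 0.47 and 0.38, all inside that range. For Srpk1 it was 0.67, larger than in 99.0% of genes, and for Srpk2 0.61, larger than in 97.8%. Both SRPK genes therefore differ more between the authors' deposited table and the FPKM columns than nearly all genes, while the gap for Dhx16 was -0.02, with 0.506% of genes below it. Of the 50-base words in the annotated transcripts of Srpk1, 2.86% also occurred in transcripts of other genes, and 7.82% for Srpk2, of which most were in Kmt2e, beside 14.1% for Clk3, 0.0711% for Clk1, 0.106% for Clk2 and 0.177% for Clk4. The part of shared sequence in these gaps was not tested.

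**Figure D3:**
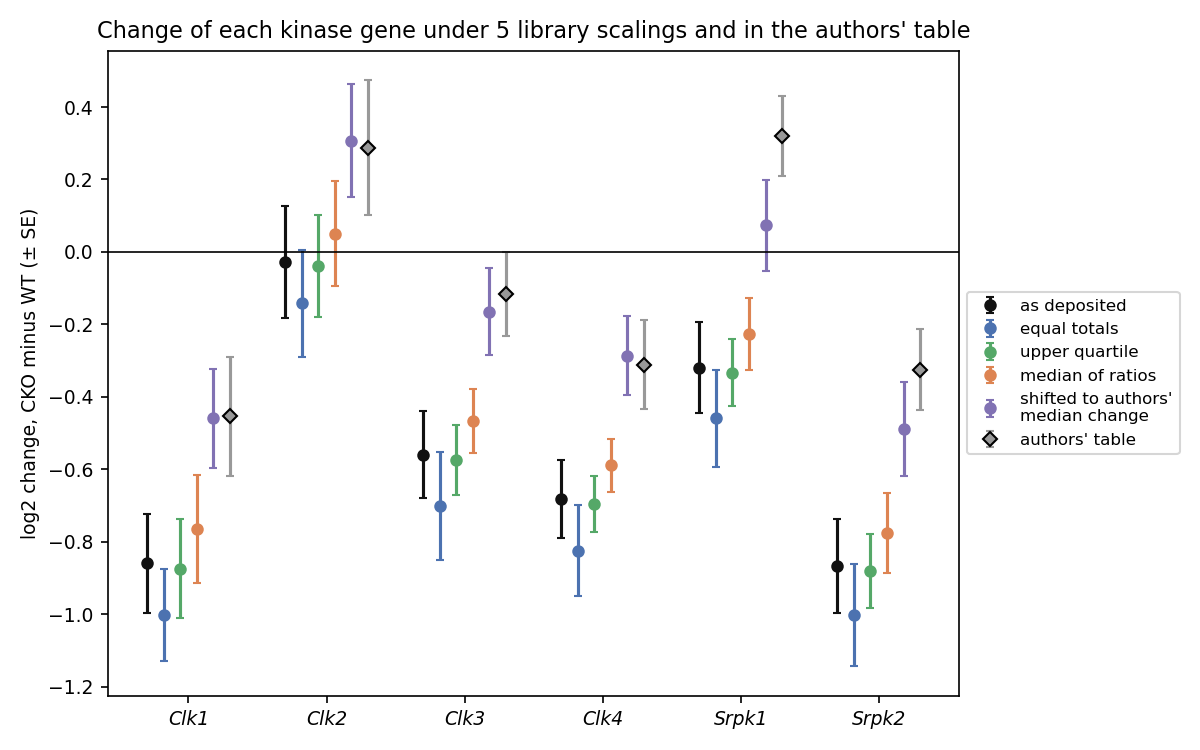
Log2 change of each kinase gene, CKO minus WT, with its standard error, for values as deposited, for 4 other scalings of the libraries (circles) and in the authors' table (grey diamonds). Clk1, Clk3, Clk4 and Srpk2 stay below 0 throughout, and Srpk1 is at -0.32 as deposited and at 0.32 in the authors' table. Clk2 lies on either side of 0 and comes from the fit with the 1 FPKM filter.

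Genes of the kinases' substrates were called in both directions. Of 13 SR protein genes, 11 were tested, 3 were called higher and 2 lower, with a median log2 change of 0.18. That is 27.3% higher and 18.2% lower, beside 21.1% higher and 31.6% lower among all genes tested. Srsf3, a small SR protein, rose to 364 ± 45.6 FPKM in CKO libraries, against 202 ± 23.1 FPKM in WT libraries (log2 0.84, limma adjusted p = 0.000104). Srsf5 fell to 313 ± 66.4 FPKM in CKO libraries, against 605 ± 47.4 FPKM in WT libraries (log2 -0.97, limma adjusted p = 9.00e-05), and neither gene's groups overlapped. Every CKO library lay below every WT library in 22.1% of all genes tested, and the share with the reverse was not counted. Tra2b, an SR-like activator of exon inclusion, rose to 220.2 ± 30.2 FPKM in CKO libraries, against 158 ± 26.4 FPKM in WT libraries (log2 0.48, limma adjusted p = 0.0105). Srsf10 was called higher with a log2 change of 0.36 (limma adjusted p = 0.034) and Srsf6 lower with -0.44 (limma adjusted p = 0.0114). Of the SR genes, 1 was higher and 1 lower under every scaling, Srsf3 and Srsf5. Among all 6913 genes tested, at most 1056 can be higher and 792 lower under every scaling.

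Related kinases were called in the same direction as the CLK genes where they were called. Of 14 such genes, outside the 6 members, only 4 were tested, with a median log2 change of -0.68. Of these 4, 0 were higher and 3 lower, beside 21.1% higher and 31.6% lower among all genes tested. Cdk11b, a cyclin-dependent kinase linked to splicing, fell to 30.2 ± 5.97 FPKM in CKO libraries, against 54.7 ± 10.7 FPKM in WT libraries (log2 -0.83, limma adjusted p = 0.000448). Hipk1, a homeodomain-interacting kinase of the same kinase group as the CLKs, fell to 8.68 ± 0.757 FPKM in CKO libraries, against 14.5 ± 1.62 FPKM in WT libraries (log2 -0.68, limma adjusted p = 0.000411). Dyrk3, a dual-specificity kinase known for dissolving nuclear speckles, fell to 15.7 ± 3.18 FPKM in CKO libraries, against 25.7 ± 4.04 FPKM in WT libraries (log2 -0.68, limma adjusted p = 0.00134). Hipk1 passed the filter through the WT libraries alone, so its call is part of how it was kept. With the 1 FPKM filter 11 of the 14 were tested, of which 8 were lower and 0 higher, or 72.7% lower beside the 36.4% of all genes in that fit. Cdk11b and Hipk1 were lower under every scaling, beside at most 792 of all 6913 genes tested.

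Of 8 phosphatase genes that act on splicing factors, 6 were tested, of which 2 were called higher, 0 lower and 4 neither, with a median log2 change of 0.05, beside 21.1% higher and 31.6% lower among all genes. Ppm1g, a phosphatase found with the spliceosome, rose to 163 ± 10.2 FPKM in CKO libraries, against 83.4 ± 13.8 FPKM in WT libraries (log2 0.97, limma adjusted p = 2.28e-05). Ppp1ca, a catalytic subunit of protein phosphatase 1, rose to 531 ± 36.2 FPKM in CKO libraries, against 367 ± 29.0 FPKM in WT libraries (log2 0.53, limma adjusted p = 0.00149). Both were higher under every scaling, beside at most 1056 of all 6913 genes tested. Their groups did not overlap, and the share of all genes with every CKO library above every WT library was not counted. With the 1 FPKM filter all 8 were tested, of which 2 were higher and 2 lower, beside 13.4% higher and 36.4% lower among all genes of that fit. The 2 called lower there, Ppp2ca and Ppp2cb, are catalytic subunits of protein phosphatase 2A and were named after their values were seen (log2 -0.42 and -0.39, limma adjusted p = 0.0493 and 0.0214).

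Partners of the kinases and other proteins with RS domains were mixed. Of 20 genes, 19 were tested, 6 were higher and 4 lower, with a median log2 change of 0.12. That is 31.6% higher and 21.1% lower, beside the reverse, 21.1% higher and 31.6% lower, among all genes tested. The HSP90 genes Hsp90aa1 and Hsp90ab1, whose chaperones bind SRPK1 in human cells, rose by log2 0.95 and 0.66 (limma adjusted p = 0.00024 and 0.002). Hsp90aa1 was at 1876 ± 206 FPKM in CKO and 986 ± 215 FPKM in WT libraries. Rnps1, an SR-related protein of the exon junction complex, rose to 168 ± 9.94 FPKM in CKO libraries, against 106 ± 15.3 FPKM in WT libraries (log2 0.67, limma adjusted p = 0.000296). Srrm2, a scaffold of nuclear speckles, fell to 147 ± 39.1 FPKM in CKO libraries, against 233 ± 31.5 FPKM in WT libraries (log2 -0.69, limma adjusted p = 0.00296). Acin1 was called lower with a log2 change of -0.52 (limma adjusted p = 0.00398) and Akt1, whose protein activates SRPKs in human cells, with -0.38 (limma adjusted p = 0.0113). The other calls were Hspa8, Ahsa1 and Lbr, higher by log2 0.60, 0.40 and 0.36, and Akt2, lower with -0.31. These other genes were named after their values were seen. Of this list 4 were higher and 0 lower under every scaling, the 4 being Hsp90aa1, Hsp90ab1, Hspa8 and Rnps1. Among all 6913 genes tested, at most 1056 can be higher and 792 lower under every scaling. The authors' scaling alone limits the lower calls to 792, so 0 lower is hard to judge. The change of Akt1 was 0.0016 under the authors' scaling.

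**Figure D4:**
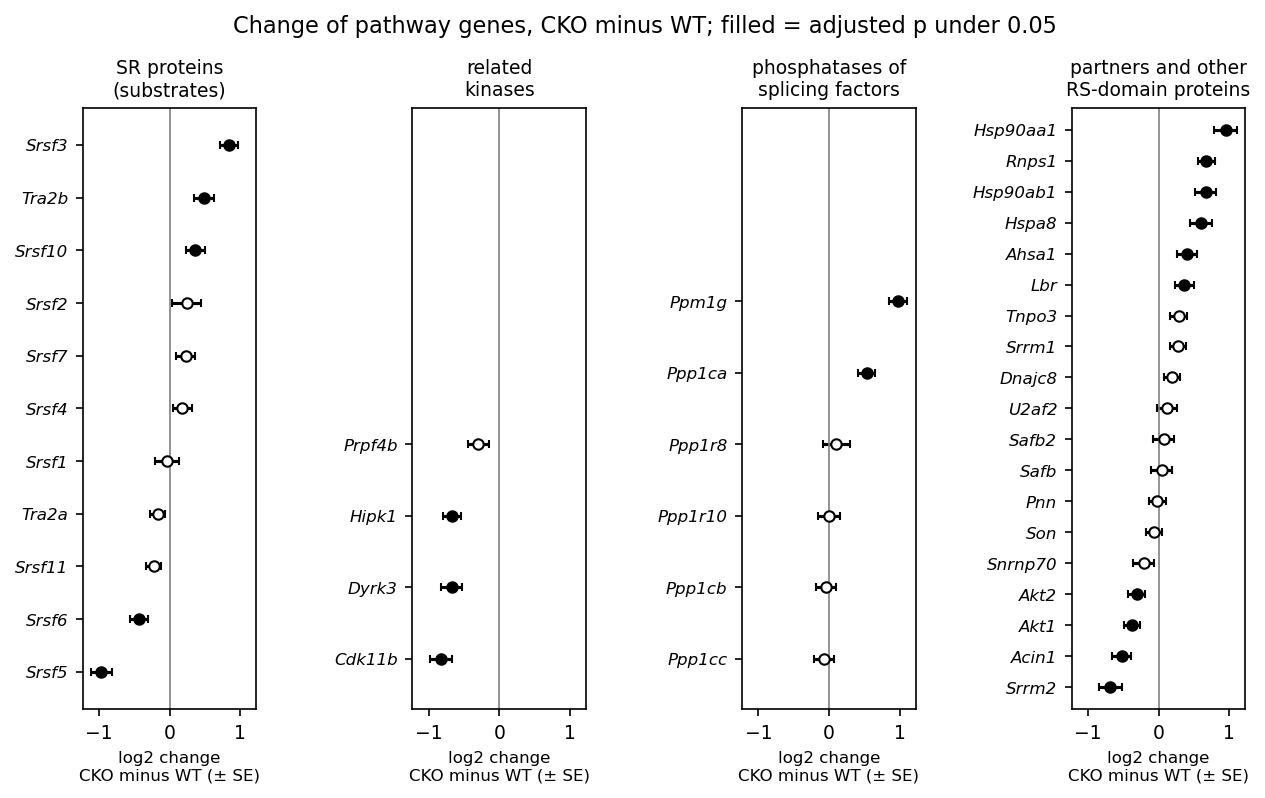
Log2 change, CKO minus WT, with its standard error for each tested gene of 4 lists, where filled points have an adjusted p under 0.05 and open points do not. The SR proteins run from -0.97 for Srsf5 to 0.84 for Srsf3, the 4 related kinases all lie below 0, and Ppm1g and Ppp1ca stand above the other phosphatases.

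The genes whose profile over the 10 libraries was most like that of each member were found by the root mean square difference of log2(FPKM + 1), each gene centred on its own mean. For Clk1 they were Hbp1, an HMG-box transcription factor, at 0.106, and N4bp2l1 at 0.11. For Clk4 they were Fam120b at 0.0581 and Dcaf17, a substrate receptor of a ubiquitin ligase, at 0.076, and for Clk3 Tacc1 at 0.0654 and Supt20, a SAGA complex subunit, at 0.0914. Srpk2 was nearest to Snx14, a sorting nexin, at 0.0548 and Atp5s at 0.0886, and Srpk1 to the small GTPase genes Rab9 at 0.0661 and Rab14 at 0.0772. Clk2 was nearest to Tprkb at 0.0988 and Wdsub1 at 0.122. No member was among the 2 nearest of another. Among the 6913 genes tested, Clk4 came 194th in the order of likeness to Clk1 and Clk1 1105th in that to Clk4, at 0.22.

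Markers of the sorted cells and of other cells differed between the groups too. Among all genes tested, 31.6% were called lower and 21.1% higher, and the counts below stand beside these shares. All 10 stem cell markers were at 1 FPKM or more in every library, and 7 of the 9 tested were called lower. Their summed level was 561 to 869 FPKM in CKO and 832 to 1190.3 FPKM in WT libraries. The 8 erythroid markers summed to 753 to 1177 FPKM in CKO and 120 to 397 FPKM in WT libraries and all 8 were higher. All 4 globins were called higher, at 1214 to 8151 FPKM in CKO and 216 to 2862 FPKM in WT libraries, ranges that overlap. The 6 megakaryocyte markers summed to 711 to 1386 FPKM in CKO and 1457 to 2148 FPKM in WT libraries and all 6 were lower. The 6 macrophage markers summed to 10.6 to 27.5 FPKM in CKO and 117 to 272 FPKM in WT libraries, and 3 of 3 tested were lower. Calls among stem cell, megakaryocyte and macrophage markers were thus in the direction of the kinase genes, and those among erythroid markers and globins in the other. The part of these cells in the falls of the kinase genes was not tested.

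Bone matrix genes summed to 4549 to 47778 FPKM in CKO and 3180 to 65870.0 FPKM in WT libraries, with 0 of 6 called in either direction. Granulocyte genes summed to 8348 to 40842 FPKM in CKO and 9623 to 74170.0 FPKM in WT libraries, again with 0 of 6 called. With the scores of both lists as covariates the kinase changes were as large or larger, at -0.86 for Clk1, -0.75 for Clk4, -0.62 for Clk3, -0.93 for Srpk2 and -0.39 for Srpk1 on the log2 scale, each still called (limma adjusted p from 0.000707 to 0.0445). Neither list separated the groups, so this fit could remove little of a difference between them. Erythroid, megakaryocyte and macrophage markers, whose sums did separate the groups, were not used as covariates. Genes excluded by the sort summed to 55.6 to 116 FPKM in CKO and 62.4 to 221 FPKM in WT libraries, and B and T lymphocyte markers to 1.60 to 3.09 FPKM in CKO and 1.39 to 5.73 FPKM in WT libraries, with 3 of these 6 under 1 FPKM in every library and 0 at 0 everywhere.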

How the data were processed

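Values were taken from a single deposited table of 52097 genes with 10 library columns, 5 CKO and 5 WT. The numbers in the column names match no sample title, so columns were mapped to groups only. The submitters' processing notes list the mm10 build, HTSeq, Cufflinks 2.1.1 and Bowtie 0.12.9 without their roles, and strandedness is not given in the sources used here. The header names no unit for the library columns, and the deposited values were taken as FPKM from their decimals, sums and relation to transcript length. The authors' mean normalized count is a deposited signal from DESeq2 and was used only for depth. The deposited log2 fold change, its standard error, the Wald score and the p-values are likewise DESeq2 output of the authors, per the file headers. No read counts were used here. Steps between low FPKM values in genes with 1 annotated transcript gave an estimate of 9650000 to 15140000 fragments in CKO and 9510000 to 13360000 in WT libraries. The authors' deposited mean normalized count was 102 for Clk2, 586 for Srpk2 and 1269 to 5554 for the other members, so Clk2 rests on the fewest reads.

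Genes with at least 10 FPKM in at least 5 libraries (6913) were fitted with limma 3.58.1 (R 4.3.3, trend and robust options) on log2(FPKM + 1), CKO minus WT, without covariates or further scaling. Folds on this scale understate the change of low genes. Benjamini-Hochberg adjustment ran over all genes tested, and an adjusted p under 0.05 was a call. The procedure was tested on simulated data. Clk2 was fitted with a filter of 1 FPKM. Alternatives were 4 scalings, 3 other filters, 2 other pseudocounts, library weights, plain limma options, 2 covariates and leaving out each library. All gene identifiers matched GENCODE M21, which uses the mm10 assembly. Sequences are from RefSeq (GRCm38.p6).

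The members and gene lists were chosen with earlier results of these data known. Named genes are the 6 members, Dhx16, up to 3 called genes per direction in each of 4 pathway lists, the 2 nearest profiles of each member and the cell type markers. Edc3 and Kmt2e were added after their values were seen, since they overlap members.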

Additional observations from a re-analysis of the deposited data

Results flagged for a closer look

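In groups of 5 libraries, a library was picked out when its gap to the nearest other library, divided by the range of the group, passed Dixon's 95% critical value of 0.71. This was tried in 76 groups of values and picked out 3, and chance picks out about 1 in 20 groups. Cdk11b was at 40.5 FPKM in CKO12, where the other CKO libraries were at 25.9 to 30.0 FPKM. Akt1 was at 15.65 FPKM in CKO7, where the other CKO libraries were at 19.5 to 20.8 FPKM. The share of Clk4 in the summed CLK FPKM was 17.6% in WT5, where the other WT libraries were at 18.6 to 18.9%.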

How the results depend on the processing

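Over 22 alternatives each, Clk1, Clk4 and Srpk2 kept their direction and their call, with log2 changes of -1.003 to -0.46, -0.82 to -0.29 and -1.003 to -0.49. Clk3 lost its call only when CKO libraries were scaled to the authors' median (-0.16). Srpk1 lost its call with median-of-ratios factors (-0.23), without a filter (-0.32, limma adjusted p = 0.114) and with library weights (-0.20), and its sign turned under the authors' scaling (0.0731). Leaving out single libraries gave -0.39 to -0.23 for Srpk1 and -0.11 to 0.10 for Clk2, which was positive without WT4 alone. Clk2 was also positive with median-of-ratios factors (0.0502), the authors' scaling (0.31) and library weights (0.014). Members called lower numbered 3 under the authors' scaling and 4 or 5 otherwise. Among all genes, the authors' scaling gave 3021 higher and 792 lower, in place of 1460 and 2182, and turned the median change to 0.27. The number lower was 4523 without a filter, 4890 at 1 FPKM and 1263 at 20 FPKM, and covariates gave 954 higher. Akt1 turned to 0.0016 under the authors' scaling and lost its call with covariates (-0.29, limma adjusted p = 0.118). In the lists, Tra2b and Srsf10 lost their calls with equal totals and with covariates, Srsf10 also without a filter and without any of CKO7, CKO8, CKO9, WT3, WT5 and WT6. Srsf6, Dyrk3, Srrm2 and Acin1 lost theirs under the authors' scaling. The cause was not tested. No paired analysis was possible because the library columns carry other numbers than the replicate numbers of the titles. Depth limits Clk2 most, at about 4 FPKM.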
